A study of Mus musculus with 17 samples.

Results

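The 8 regeneration-associated effector genes examined here are Sprr1a, Gap43, Basp1, Ecel1, Flrt3, Gadd45a, Csrp3 and Plaur. They were taken by gene symbol as classic effectors of axon regrowth and nerve injury, and all 8 were among the 19152 genes of the expression table. The table held RNA-Seq of dorsal root ganglia (DRGs), the ganglia that house the cell bodies of sensory neurons, from C57BL/6 mice. Mtor fl/fl mice carry loxP sites around part of Mtor and no Cre. Their Mtor-cKO counterparts (Adv-Cre::Mtor fl/fl) carry the same floxed alleles plus Cre driven by Advillin, which acts in sensory neurons, so that the glia, vessels and immune cells of the ganglion keep Mtor. The 4 groups were Mtor fl/fl at baseline (n = 4), Mtor fl/fl at day 7 after spared nerve injury (SNI, n = 5), Mtor-cKO at baseline (n = 4) and Mtor-cKO at day 7 after SNI (n = 4). Baseline mice were untreated and no group had sham surgery, so effects of the nerve injury and of the operation itself cannot be told apart. SNI cuts branches of the sciatic nerve and leaves the sural branch intact, and here it was done on both sides. Each library pooled the 4 DRGs (bilateral L4 and L5) of 1 mouse, so 1 mouse was 1 replicate, and injured and spared neurons were measured together.

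Sensory neurons whose peripheral axon is cut switch on a set of genes that accompanies regrowth, often called regeneration-associated genes. Transcription factors such as ATF3, JUN and SOX11 stand at its head. The effectors below them include proteins of the growth cone, adhesion receptors, proteases and proteins of the stress response. mTOR is a kinase that sets the rate of protein synthesis and cell growth, and it is known to support axon regrowth after injury. The comparisons address how these effector genes responded to SNI with and without neuronal Mtor.

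Library depth ranged from 17060876 to 21076542 expected counts. Mtor itself lay at 8.58 to 15.97 FPKM (fragments scaled to transcript length and library size) in Mtor fl/fl baseline libraries against 3.16 to 6.36 FPKM in Mtor-cKO, and at 5.96 to 14.43 FPKM against 3.44 to 5.83 FPKM at day 7, with no overlap at either time. Its log2 fold change between genotypes was -1.10 at baseline and -0.91 at day 7 (edgeR quasi-likelihood test, Benjamini-Hochberg adjusted p = 0.0154 and 0.0227). The baseline call was lost without Mtor fl/fl replicate 1 or Mtor-cKO replicate 1, and the day 7 call without Mtor fl/fl replicate 1 or 2 or Mtor-cKO replicate 1 (edgeR adjusted p from 0.0512 to 0.0797), with log2 fold changes of -0.72 to -0.95. Without the 3 libraries highest in skeletal muscle markers Mtor did not pass at either time (-1.08 and -0.76, adjusted p = 0.0643 and 0.0945). The 11 pan-neuronal markers measured were all detected, and their summed level was 6070 to 6681 FPKM in Mtor-cKO libraries against 7345 to 9699 FPKM in Mtor fl/fl. Most of that gap lay in the 3 neurofilament genes Nefl, Nefm and Nefh, which summed to means of 1525 FPKM against 3549 FPKM at baseline and 1220.4 FPKM against 2645 FPKM at day 7. Within the Mtor fl/fl baseline group, replicates 3 and 4 stood apart from replicates 1 and 2, with summed macrophage markers of 351 and 434 FPKM against 92.3 and 90.4 FPKM. The split was not limited to macrophages. Neutrophil markers were at 953 and 696 FPKM against 160 and 172 FPKM, and erythroid markers at 4083 and 4377 FPKM against 605 and 555 FPKM. Satellite glia, Schwann cell and fibroblast markers were also higher there. Mtor fl/fl day 7 replicate 5 was the highest of its group in satellite glia and Schwann cell markers, at 3811 and 6404 FPKM. That day 7 group was also uneven in macrophage markers. Replicates 1 and 2 held 187 and 198 FPKM, against 476, 422 and 609 FPKM in replicates 3, 4 and 5. Neutrophil and erythroid markers were likewise lowest in day 7 replicates 1 and 2. Mtor-cKO baseline replicate 2 and Mtor-cKO day 7 replicate 1 held far more skeletal muscle marker RNA than the others, at 724 and 598 summed FPKM over 14 markers, while the next library was at 107. Mtor fl/fl day 7 replicate 3 was the highest library of its group for every one of the 7 members tested.

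Of the 8 genes, 7 passed the expression filter (a group mean of 1 FPKM or more in any of the 4 groups), and Csrp3 did not. After SNI all 7 rose in Mtor fl/fl DRGs, and 6 of them, all but Basp1, rose more than 2-fold. In each of the 7, every day 7 library lay above every baseline library. Across the 13408 genes tested, 4.66% rose at an adjusted p under 0.05, 1.04% rose more than 2-fold, and 4.65% had day 7 libraries all above the baseline libraries. In Mtor-cKO DRGs 6 of the 7 rose and 5 rose more than 2-fold, against 4.57% and 1.13% of all genes, and 6 had no overlap between the groups, against 15.7% of all genes. The member without a call there was Basp1. The median log2 fold change over the 7 members was 2.17 in Mtor fl/fl and 2.32 in Mtor-cKO, while the median over all genes was -0.01 and 0.00. In bulk tissue a change in the number of cells of a type and a change in RNA per cell cannot be told apart.

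**Figure D1:**
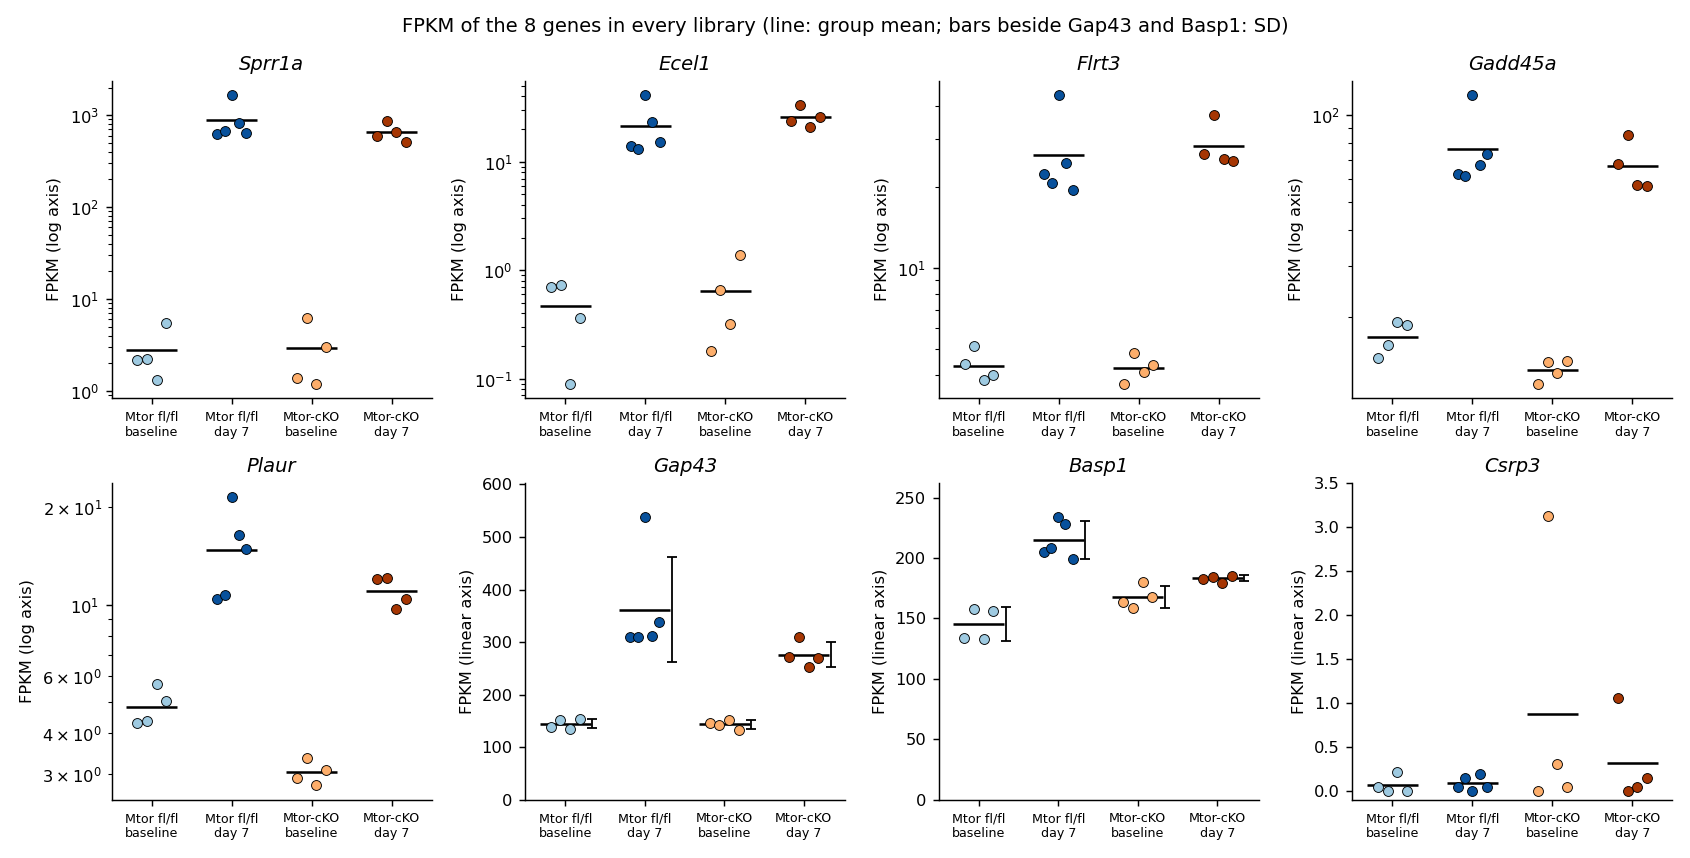
FPKM of the 8 genes in each of the 17 libraries, by group, with the group mean as a line. The axis is logarithmic for the 5 genes from Sprr1a to Plaur, and linear for Gap43, Basp1 and Csrp3, where bars beside the Gap43 and Basp1 points give the SD. Sprr1a moved from means of 2.82 and 2.96 FPKM to 883 and 655 FPKM, whereas Basp1 stayed between 133 and 234 FPKM in every library.

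Sprr1a encodes a small proline-rich protein, a precursor of the cornified envelope of keratinocytes that is also induced in axotomized sensory neurons and found in their growing axons. The gene lies at chr3:92483952-92485895 on the minus strand (GRCm38, GENCODE M21), with 2 exons. Its promoter window, from 250 bases before to 50 after the RefSeq start site, is chr3:92485832-92486131 on the minus strand (RefSeq, GRCm38.p6). It is shown because this gene had the largest induction of the set, together with the window of Basp1, which had the smallest (chr15:25413715-25414014, minus strand), and that of Plaur (chr7:24462233-24462532, plus strand), the other member with a match to the AP-1 letters. Each sequence runs 5′ to 3′, with matches to AP-1 and TATA letters in capitals.
Sprr1a: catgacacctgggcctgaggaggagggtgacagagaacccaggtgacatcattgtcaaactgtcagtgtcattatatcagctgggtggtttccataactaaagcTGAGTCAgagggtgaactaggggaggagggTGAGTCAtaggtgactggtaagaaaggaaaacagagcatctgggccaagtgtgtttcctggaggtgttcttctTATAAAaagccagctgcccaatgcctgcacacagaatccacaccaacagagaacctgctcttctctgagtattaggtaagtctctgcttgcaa
Plaur: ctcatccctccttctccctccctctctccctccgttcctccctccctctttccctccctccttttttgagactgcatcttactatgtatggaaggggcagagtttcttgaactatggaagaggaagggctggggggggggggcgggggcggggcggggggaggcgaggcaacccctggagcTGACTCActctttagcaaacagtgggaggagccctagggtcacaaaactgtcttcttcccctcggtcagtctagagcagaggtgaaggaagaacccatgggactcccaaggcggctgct
Basp1: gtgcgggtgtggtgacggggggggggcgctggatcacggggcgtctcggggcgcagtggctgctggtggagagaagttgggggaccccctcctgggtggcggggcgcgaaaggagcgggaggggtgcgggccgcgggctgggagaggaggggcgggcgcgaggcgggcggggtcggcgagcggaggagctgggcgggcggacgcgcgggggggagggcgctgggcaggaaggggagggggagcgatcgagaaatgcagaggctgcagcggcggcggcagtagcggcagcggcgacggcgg
Searches on both strands covered AP-1 (TGANTCA), the site type of JUN and ATF3 dimers, as well as ATF/CRE (TGACGTCA), C/EBP-ATF (TGATGCAA), STAT (TTCNNNGAA), the GC box (GGGCGG) and the TATA box (TATAAA). The Sprr1a window held TGAGTCA with first bases at -146 and -116 from the start site and TATAAA at -43. In the Plaur window TGACTCA began at -69, beside 3 GC boxes, and the Basp1 window held 4 GC boxes, none of them capitalised, at a GC content of 78.0%. Among the 32851 promoter windows of the same length, 7.81% held the AP-1 letters, 13.6% TATA and 35.7% a GC box. The windows of Ecel1, Flrt3 and Csrp3 held none of the 6 motifs, and that of Gadd45a held 1 GC box. Windows were found for 7 of the 8 members, not for Gap43. These matches describe letters in a window and not binding.

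Sprr1a stood at 2.19, 2.25, 1.3 and 5.54 FPKM in the 4 Mtor fl/fl baseline libraries. At day 7 the same genotype had 619.6, 678, 1641, 833 and 642 FPKM. The Mtor-cKO libraries held 1.39, 6.22, 1.2 and 3.03 FPKM at baseline and 593, 862, 659.97 and 507 FPKM at day 7. The groups before and after injury did not come near each other in either genotype, and the genotypes overlapped at both times. The log2 fold change was 8.32 ± 0.54 (approximate SE) in Mtor fl/fl and 7.76 ± 0.53 in Mtor-cKO (edgeR adjusted p = 1.2e-07 and 4.4e-07). By mean FPKM, Sprr1a moved from rank 10770 to rank 35 of 19152 genes in Mtor fl/fl and from 10566 to 44 in Mtor-cKO. At day 7 the genotypes differed by -0.46 on the log2 scale with a 95% interval of -1.22 to 0.30 (edgeR adjusted p = 0.365), an interval wide enough to hold a 2-fold lower level. Sprr1b, its nearest paralog, was low throughout, at 0 FPKM in every baseline library of both genotypes. At day 7 it was at 0.33 to 1.68 FPKM in Mtor fl/fl and at 0.06 to 0.09 FPKM in Mtor-cKO, without overlap. These levels rest on 5 to 21 counts and about 1 count per library, and no test of them is given here.

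Among the other genes of the SPRR family and the cornified envelope, 19 were listed, 11 were in the table and 4 passed the expression filter. S100a11, a calcium-binding protein of the envelope and many other cells, rose by 1.27 in Mtor fl/fl and 1.26 in Mtor-cKO on the log2 scale (edgeR adjusted p = 0.00027 and 0.00064). Lce6a, a late cornified envelope gene, was at 0.28 to 0.47 FPKM in Mtor fl/fl baseline libraries, 1.30 to 3.28 at day 7, 0.08 to 0.23 in Mtor-cKO at baseline and 4.18 to 7.33 at day 7. No library of one of these groups overlapped another group. Its log2 fold change after SNI was 2.00 ± 0.35 in Mtor fl/fl and 5.32 ± 0.40 in Mtor-cKO, and the difference between these changes passed the interaction test at 3.32 ± 0.56 (edgeR adjusted p = 0.0303). Counts behind the Mtor-cKO baseline were only 1 to 5 per library, and this call was lost when any 1 of 13 libraries was left out, with edgeR adjusted p-values up to 0.096.

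Gap43 and Basp1 encode abundant membrane-associated proteins of the growth cone that bind acidic phospholipids and calmodulin and organise the actin beneath the membrane. Gap43 lies at chr16:42248442-42340651 and Basp1 at chr15:25363277-25413764, both on the minus strand, with 3 and 2 exons in their longest transcripts (GRCm38, GENCODE M21). They were the most abundant members at baseline, with means of 145 ± 8.97 FPKM for Gap43 and 145 ± 13.8 FPKM for Basp1 (SD, n = 4) in Mtor fl/fl, levels that overlapped each other.

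Gap43 was at 139, 152, 135 and 153 FPKM in Mtor fl/fl baseline libraries and at 309, 310.1, 539, 312 and 338 FPKM at day 7. In Mtor-cKO it was at 146, 143, 152 and 132 FPKM at baseline and at 271, 309, 253 and 270.5 FPKM at day 7. Both genotypes started at the same level and both rose with no overlap, by a log2 fold change of 1.33 ± 0.15 in Mtor fl/fl and 0.92 ± 0.15 in Mtor-cKO (edgeR adjusted p = 3e-05 and 0.0016). At day 7 all 4 Mtor-cKO libraries lay below all 5 Mtor fl/fl libraries, although the highest of the former (309.08 FPKM) was next to the lowest of the latter (309.26 FPKM). That difference was -0.42 ± 0.14 on the log2 scale with a 95% interval of -0.72 to -0.12 (edgeR adjusted p = 0.0382), whereas at baseline it was -0.01 with an interval of -0.33 to 0.30 (adjusted p = 0.970). Without Mtor fl/fl day 7 replicate 3 the day 7 difference shrank to -0.24 with an edgeR adjusted p of 0.0533, and it also lost its call without Mtor-cKO day 7 replicate 1, 3 or 4 (adjusted p = 0.0911, 0.104 and 0.0824).

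Basp1 was at 134, 158, 133 and 156 FPKM in Mtor fl/fl baseline libraries, and at 205, 208, 234, 228 and 199 FPKM at day 7. In Mtor-cKO it was at 163, 159, 180.5 and 168 FPKM at baseline and at 183, 185, 179.7 and 185 FPKM at day 7. The 5 injured Mtor fl/fl libraries formed the top of the range and the 4 uninjured ones the bottom, with all 8 Mtor-cKO libraries between them. The order of group means was therefore Mtor fl/fl baseline (145 ± 13.8), Mtor-cKO baseline (168 ± 9.31), Mtor-cKO day 7 (183 ± 2.49) and Mtor fl/fl day 7 (215 ± 15.3 FPKM, SD), and the 2 Mtor-cKO groups in the middle overlapped. Basp1 rose by 0.57 ± 0.09 on the log2 scale in Mtor fl/fl (edgeR adjusted p = 0.00053). In Mtor-cKO the change was 0.10 ± 0.09, with a 95% interval of -0.09 to 0.29 (edgeR adjusted p = 0.505). The difference between the 2 changes was -0.47 ± 0.12, with a 95% interval of -0.73 to -0.21, at an unadjusted p of 0.00146 and an edgeR adjusted p of 0.144, so it did not pass over the 13408 genes. It passed with DESeq2 (adjusted p = 0.0093) and when Mtor fl/fl baseline replicate 2 or Mtor fl/fl day 7 replicate 5 was left out (edgeR adjusted p = 0.0473 and 0.0390), and the adjusted p over all alternatives ran from 0.0093 to 0.627.

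Among 21 other growth cone and axon growth genes tested, 9 rose in Mtor fl/fl, with 3 over 2-fold and none falling. In Mtor-cKO 5 rose and 1 fell. The median log2 fold change of the list was 0.20 and 0.05. Stmn4 and Stmn2, microtubule-destabilising stathmins, rose in both genotypes, by 2.45 and 0.60 in Mtor fl/fl and by 2.81 and 0.56 in Mtor-cKO (edgeR adjusted p from 1.1e-05 to 0.0040). Tubb2b, a neuronal beta-tubulin, rose by 1.03 in Mtor fl/fl and 0.85 in Mtor-cKO (edgeR adjusted p = 0.00012 and 0.0013). Chl1, an adhesion molecule of the L1 family, rose by 1.61 ± 0.22 in Mtor fl/fl and had a log2 fold change of 0.40 ± 0.22 in Mtor-cKO (edgeR adjusted p = 0.00019 and 0.26), after a baseline 1.04 higher in Mtor-cKO (adjusted p = 0.0044). Its interaction of -1.21 ± 0.30 did not pass (edgeR adjusted p = 0.13). Marcks, whose product shares the phospholipid and calmodulin binding of GAP43 and BASP1, rose by 0.53 in Mtor fl/fl and 0.47 in Mtor-cKO (edgeR adjusted p = 0.0029 and 0.012). It was higher in Mtor-cKO at both times, by 0.34 at baseline and 0.27 at day 7 (edgeR adjusted p = 0.037 and 0.049). Stmn3 was 0.41 lower in Mtor-cKO at day 7 (edgeR adjusted p = 0.00048), with a baseline difference of -0.09 (adjusted p = 0.43).

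Ecel1 encodes a membrane endopeptidase of the neprilysin family, also known as DINE for its induction in damaged neurons. It lies at chr1:87147655-87156521 on the minus strand, with 18 exons in its longest transcript (GRCm38, GENCODE M21). Mtor fl/fl baseline libraries held 0.7, 0.73, 0.09 and 0.36 FPKM of Ecel1, with 14.1, 13.2, 40.9, 23.5 and 15.3 FPKM at day 7. In Mtor-cKO it was 0.18, 0.66, 0.32 and 1.39 FPKM at baseline and 23.6, 33.6, 20.7 and 26.1 FPKM at day 7. Uninjured ganglia thus held next to no Ecel1 RNA in either genotype, with 5 to 87 counts per library, and every library of injured ganglia held at least 757 counts. The log2 fold change was 5.48 ± 0.55 in Mtor fl/fl and 5.29 ± 0.54 in Mtor-cKO (edgeR adjusted p = 1.4e-05 and 1.8e-05). At day 7 the genotypes overlapped, with a difference of 0.25 and a 95% interval of -0.57 to 1.07 (edgeR adjusted p = 0.672). Of the 4 other neprilysin family endopeptidases tested, none passed in either genotype, with median log2 fold changes of -0.34 and 0.30.

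Flrt3 encodes a leucine-rich repeat transmembrane protein that binds latrophilins and UNC5 receptors on neighbouring cells. The gene lies at chr2:140650914-140671469 on the minus strand, with 3 exons in its longest transcript (GRCm38, GENCODE M21). It was at 4.41, 5.11, 3.85 and 3.99 FPKM in Mtor fl/fl baseline libraries and at 22.4, 20.7, 43.6, 24.4 and 19.4 FPKM at day 7. The Mtor-cKO libraries were at 3.72, 4.85, 4.11 and 4.37 FPKM at baseline and at 26.5, 36.9, 25.4 and 24.9 FPKM at day 7. Injured and uninjured libraries were far apart and the genotypes overlapped at both times. Flrt3 rose by 2.59 ± 0.23 in Mtor fl/fl and by 2.71 ± 0.24 in Mtor-cKO on the log2 scale (edgeR adjusted p = 3.9e-06 and 5.1e-06). The day 7 difference between genotypes was 0.09, with a 95% interval of -0.35 to 0.53 (edgeR adjusted p = 0.794). Among 17 other FLRT family genes and partners tested, none rose and 1 fell in Mtor fl/fl, namely Slit2, a guidance ligand, at -0.51 ± 0.13 (edgeR adjusted p = 0.020). The family member Flrt1 had a log2 fold change of -0.25 in Mtor fl/fl (edgeR adjusted p = 0.41) and was 0.46 higher in Mtor-cKO at day 7 (adjusted p = 0.036).

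Gadd45a encodes a small stress-induced protein that acts in growth arrest and DNA repair and is a target of p53. It lies at chr6:67035096-67037457 on the minus strand, with 4 exons in its longest transcript (GRCm38, GENCODE M21). In Mtor fl/fl it was at 14.3, 16.0, 19.1 and 18.8 FPKM at baseline and at 62.2, 61.2, 117, 67.0 and 73.4 FPKM at day 7. In Mtor-cKO it was at 11.7, 13.96, 12.7 and 14.01 FPKM at baseline and at 67.5, 85.3, 57.0 and 56.5 FPKM at day 7. All 9 injured libraries lay above all 8 uninjured ones, and at baseline the Mtor-cKO libraries lay just below those of Mtor fl/fl without overlap. The injury log2 fold change was 2.17 ± 0.18 in Mtor fl/fl and 2.32 ± 0.19 in Mtor-cKO (edgeR adjusted p = 1.9e-06 and 2.0e-06). The baseline difference of -0.37 ± 0.18 did not pass (edgeR adjusted p = 0.198), although it did without Mtor fl/fl day 7 replicate 3, which enters the shared estimate of spread (adjusted p = 0.0457). The day 7 difference was -0.22, with a 95% interval of -0.57 to 0.13 (edgeR adjusted p = 0.336). Among 16 other GADD45 family genes and p53 targets tested, 4 rose in Mtor fl/fl and 5 in Mtor-cKO, and none fell. Gadd45g rose by 1.31 and 1.30 (edgeR adjusted p = 0.00038 and 0.0007), and Cdkn1a, which encodes the cell cycle inhibitor p21, by 1.26 and 1.06 (adjusted p = 0.00063 and 0.0045). Pmaip1, which encodes the apoptosis regulator NOXA, rose by 1.62 and 2.43 (edgeR adjusted p = 0.0054 and 0.00099), from a baseline 1.54 lower in Mtor-cKO (adjusted p = 0.013). Sesn2 rose by 0.94 in Mtor fl/fl and did not pass in Mtor-cKO, at 0.55 (edgeR adjusted p = 0.0047 and 0.097). At day 7 it was 0.73 lower in Mtor-cKO (edgeR adjusted p = 0.0083). The interactions of Pmaip1 and Sesn2 did not pass (edgeR adjusted p = 0.50 and 0.56).

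Plaur encodes the receptor of urokinase plasminogen activator, a lipid-anchored surface protein that concentrates plasminogen activation at the cell surface. It lies at chr7:24462484-24475968 on the plus strand, with 6 exons in its longest transcript (GRCm38, GENCODE M21). Levels in Mtor fl/fl were 4.29, 4.36, 5.68 and 5.02 FPKM at baseline and 10.4, 10.7, 21.5, 16.4 and 14.9 FPKM at day 7. Levels in Mtor-cKO were 2.91, 3.36, 2.76 and 3.08 FPKM at baseline and 12.01, 12.08, 9.69 and 10.4 FPKM at day 7. At baseline every Mtor-cKO library lay below every Mtor fl/fl library for Plaur, as for Gadd45a, and of these only Plaur passed the test. At day 7, 3 of the 4 Mtor-cKO libraries lay within the Mtor fl/fl range. It rose by 1.62 ± 0.17 in Mtor fl/fl and 1.80 ± 0.18 in Mtor-cKO on the log2 scale (edgeR adjusted p = 1.8e-05 and 1.8e-05). The genotype difference was -0.64 ± 0.18 at baseline and -0.46 ± 0.16 at day 7 (edgeR adjusted p = 0.0257 and 0.0450). The baseline call was lost without Mtor fl/fl baseline replicate 3 or Mtor-cKO baseline replicate 1, 3 or 4 (edgeR adjusted p from 0.0544 to 0.0754). Without both Mtor fl/fl baseline replicates 3 and 4, whose macrophage, neutrophil, erythroid and glial markers were high, the baseline difference was -0.57 (edgeR adjusted p = 0.112). The day 7 call was lost when any 1 of 10 libraries was left out, namely Mtor fl/fl day 7 replicate 3 or 4 or any Mtor-cKO library (edgeR adjusted p from 0.0529 to 0.127), and without Mtor fl/fl day 7 replicate 3 the difference became -0.29. Plaur is also expressed by macrophages and neutrophils. Their 15 and 8 markers summed to 187 to 609 and 228 to 1639 FPKM in Mtor fl/fl at day 7 and to 340 to 599 and 366 to 799 FPKM in Mtor-cKO. Mtor fl/fl day 7 replicates 1 and 2 were the lowest of their group in both marker sums and in Plaur. The part of these cells in the Plaur differences was not tested.

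Among 15 other genes of the plasminogen activator system tested, 4 rose in Mtor fl/fl and 3 in Mtor-cKO, none over 2-fold, with none falling. Plau, the ligand of PLAUR, rose by 0.61 ± 0.12 and 0.44 ± 0.13 (edgeR adjusted p = 0.0049 and 0.047). Its genotype difference at day 7 was 0.03 (edgeR adjusted p = 0.87). S100a10 and Anxa2, which together form a plasminogen receptor, rose in Mtor fl/fl by 0.60 and 0.31 (edgeR adjusted p = 0.022 and 0.012) and were 0.64 and 0.25 lower in Mtor-cKO at day 7 on the log2 scale (adjusted p = 0.0055 and 0.015). Lrp1, a receptor that takes up protease and inhibitor complexes, was 0.68 higher in Mtor-cKO at day 7 (edgeR adjusted p = 0.00034).

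Csrp3 encodes muscle LIM protein, which belongs to the contractile apparatus of striated muscle and has also been described in regenerating neurons. It lies at chr7:48830398-48848033 on the minus strand (GRCm38, GENCODE M21). Mtor fl/fl libraries held 0.05, 0, 0.21 and 0 FPKM of it at baseline and 0.05, 0.15, 0, 0.19 and 0.05 FPKM at day 7. In Mtor-cKO it was 0, 3.13, 0.31 and 0.05 FPKM at baseline and 1.06, 0, 0.05 and 0.15 FPKM at day 7. Only Mtor-cKO baseline replicate 2, with 60 counts, and Mtor-cKO day 7 replicate 1, with 22 counts, lay above 0.31 FPKM, and these were the libraries with the most skeletal muscle marker RNA. The whole Mtor fl/fl day 7 group held 9 counts of Csrp3 against 5 at baseline, with 0 to 4 counts per library in both groups. No large induction by SNI was seen, and a small one would not be detectable at these counts. In the fit with no filter its injury log2 fold change was 0.44 ± 1.79 in Mtor fl/fl and -1.51 ± 1.15 in Mtor-cKO (edgeR adjusted p = 0.961 and 0.480). The part of muscle RNA in the Csrp3 counts was not tested. Of 15 other cysteine-rich LIM protein genes tested, 1 rose in Mtor fl/fl, Pdlim1, by 0.84 ± 0.12 (edgeR adjusted p = 0.00043).

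**Figure D2:**
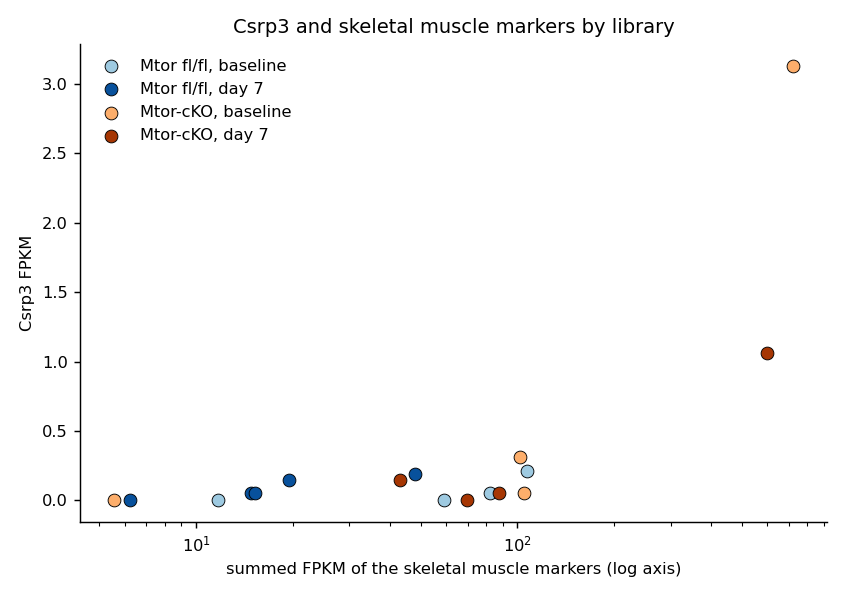
Csrp3 level in FPKM against the summed FPKM of 14 skeletal muscle markers (log axis) in the 17 libraries, coloured by group. The 2 points at 3.13 and 1.06 FPKM are the libraries with 724 and 598 summed muscle FPKM, and the other 15 libraries lie at or below 0.31 FPKM.

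**Figure D3:**
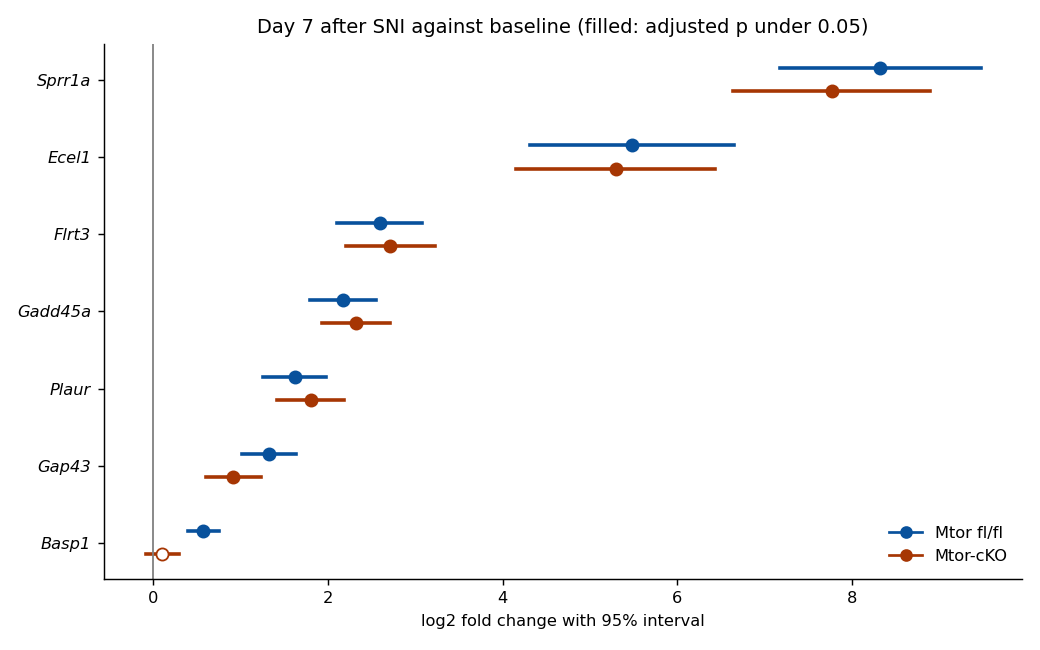
Log2 fold change between day 7 after SNI and baseline for the 7 members tested, in Mtor fl/fl and in Mtor-cKO, with 95% intervals from edgeR. Filled points passed an adjusted p under 0.05. The intervals of the 2 genotypes overlap for all genes but Basp1, whose change was 0.57 in Mtor fl/fl and 0.10 in Mtor-cKO.

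The members fell into the same order of induction in both genotypes, from Sprr1a and Ecel1 through Flrt3, Gadd45a and Plaur to Gap43 and Basp1. In levels per length the order changed with injury. In Mtor fl/fl at baseline Basp1 and Gap43 led with 145 FPKM each, followed by Gadd45a (17 ± 2.28), Plaur (4.84 ± 0.651), Flrt3 (4.34 ± 0.566), Sprr1a (2.82 ± 1.86) and Ecel1 (0.470 ± 0.304 FPKM, SD, n = 4). Plaur, Flrt3 and Sprr1a overlapped. At day 7 Sprr1a led with 883 ± 432 FPKM, ahead of Gap43 (362 ± 99.7), Basp1 (215 ± 15.3), Gadd45a (76.1 ± 23.2), Flrt3 (26.1 ± 9.96), Ecel1 (21.4 ± 11.6) and Plaur (14.8 ± 4.58 FPKM, SD, n = 5), where the last 3 overlapped.

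Between genotypes at baseline 1 of the 7 members, Plaur, was lower in Mtor-cKO, against 7.91% of all genes. Basp1 had all Mtor-cKO baseline libraries above those of Mtor fl/fl, by 0.21 ± 0.09 on the log2 scale, without passing the test (edgeR adjusted p = 0.138), which it did without Mtor fl/fl baseline replicate 2, at 0.29 (adjusted p = 0.0289). At day 7 the lower members were 3 of 7, Basp1, Gap43 and Plaur, where 13.1% of all genes were lower. The Basp1 difference at day 7 was -0.27 ± 0.09 (edgeR adjusted p = 0.0296). It was of like size, between -0.24 and -0.28, but did not pass, at edgeR adjusted p-values of 0.0509 to 0.0733, when any 1 of 8 day 7 libraries was left out, the exception being Mtor fl/fl replicate 5. None of the 7 differed by more than 2-fold at either time by edgeR or DESeq2, against 1.65% of all genes at baseline and 2.39% at day 7 by edgeR. At an unadjusted p under 0.05, 2 members differed at baseline and 3 at day 7. The share of all genes at that threshold was not computed. At an edgeR adjusted p under 0.05, 2130 and 3483 of the 13408 genes differed. At day 7, 6 of 11 pan-neuronal markers were also lower in Mtor-cKO, with a median log2 difference of -0.42 over the 11, and their part in the lower Gap43 and Basp1 levels was not tested. At baseline 3 of the 11, the neurofilament genes, were lower and 1, Prph, was higher, with a median of -0.15, while Gap43 overlapped between the genotypes. The other 8 markers summed to 4667 to 5057 FPKM in Mtor-cKO against 5122 to 5258 FPKM at baseline, and to 4868 to 5455 FPKM against 5289 to 6265 FPKM at day 7. Skeletal muscle markers moved in the same comparison, with 12 of 14 higher in Mtor-cKO at day 7, all 12 over 2-fold, at a median log2 difference of 3.32 and summed levels of 43.1 to 598 FPKM against 6.22 to 47.99 FPKM. Their part in the member differences was not tested. Without the 3 libraries highest in these markers 0 members passed at day 7. The log2 differences were then -0.41 for Gap43, -0.26 for Basp1 and -0.50 for Plaur (edgeR adjusted p = 0.109, 0.0639 and 0.0815). Only 1 of the 3, Mtor-cKO day 7 replicate 1, is a day 7 library. The Mtor-cKO day 7 libraries that were kept still held 43.1 to 87.7 FPKM of these markers, so this fit cannot show what muscle RNA contributed.

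**Figure D4:**
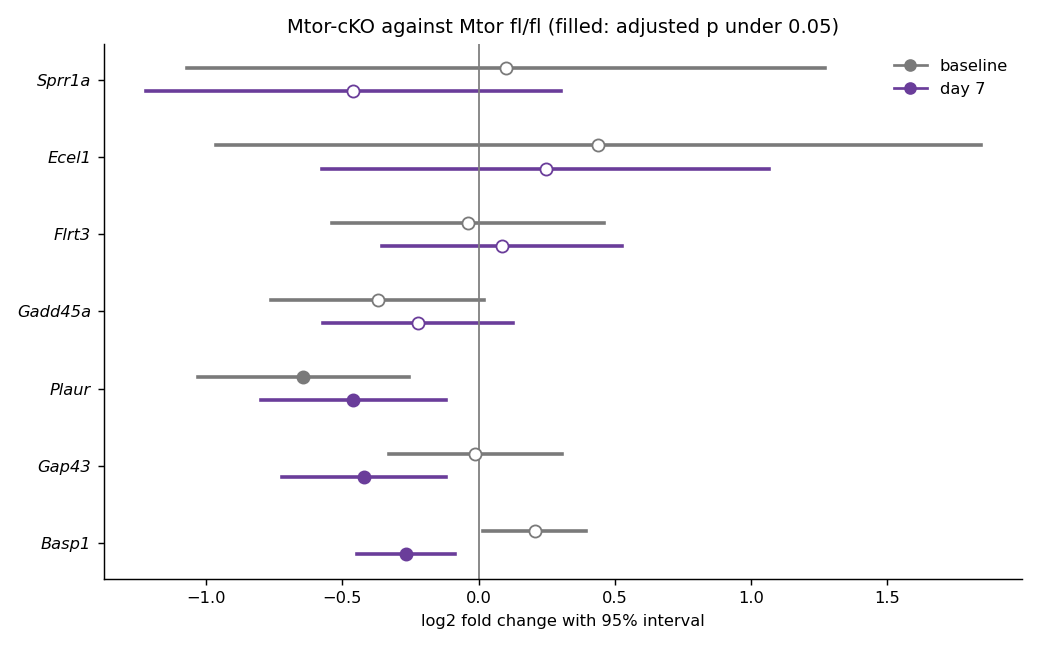
Log2 difference between Mtor-cKO and Mtor fl/fl at baseline and at day 7 for the 7 members tested, with 95% intervals from edgeR. Filled points passed an adjusted p under 0.05. Plaur is below 0 at both times, Gap43 moves from -0.01 to -0.42, and Basp1 from 0.21 to -0.27.

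For the injury response itself, the interaction of injury and genotype passed for 0 of the 7 members by edgeR, against 0.0820% of all genes. It passed for 1 member (Basp1) by DESeq2, against 258 of 13408 genes. At an unadjusted p under 0.05 by edgeR there was 1 member (Basp1), and the share of all genes at that threshold was not computed. The interaction was -0.41 ± 0.21 for Gap43, with a 95% interval of -0.85 to 0.03 (edgeR adjusted p = 0.416). For Sprr1a it was -0.56, with an interval of -1.96 to 0.84 (edgeR adjusted p = 0.766), and for Ecel1 -0.19, with an interval of -1.81 to 1.43 (adjusted p = 0.945). The intervals of Flrt3 (-0.54 to 0.79), Gadd45a (-0.37 to 0.67) and Plaur (-0.33 to 0.70) did not reach a 2-fold lower induction. The Sprr1a interval also held a 2-fold lower induction, and that of Ecel1 a 2-fold lower or higher one. The baseline libraries of each genotype serve in the injury, genotype and interaction comparisons alike, so these values are not independent of each other.

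The injured libraries differed among themselves, and the members moved together in this. In Mtor fl/fl day 7 replicate 3 the level was 2.47 times the mean of the other 4 libraries for Ecel1, 2.37 for Sprr1a, 2.01 for Flrt3, 1.77 for Gadd45a, 1.70 for Gap43, 1.64 for Plaur and 1.11 for Basp1. Atf3, the injury-induced transcription factor, was 2.30 times higher there, at 227 FPKM against 91.6 to 105 FPKM in the others. In Mtor-cKO, day 7 replicate 2 was the highest library for 6 of the 7 members, with ratios from 1.13 for Plaur to 1.47 for Sprr1a, and 1.46 for Atf3. The members that rose most varied most between mice, with coefficients of variation at day 7 in Mtor fl/fl of 54.3% for Ecel1 and 48.9% for Sprr1a against 7.14% for Basp1. With both libraries left out all 7 members still passed in Mtor fl/fl and 6 in Mtor-cKO, against 548 of 13408 genes in each genotype. Between genotypes at day 7 only 1 member, Gap43, passed there, against 2489 of 13408 genes.

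**Figure D5:**
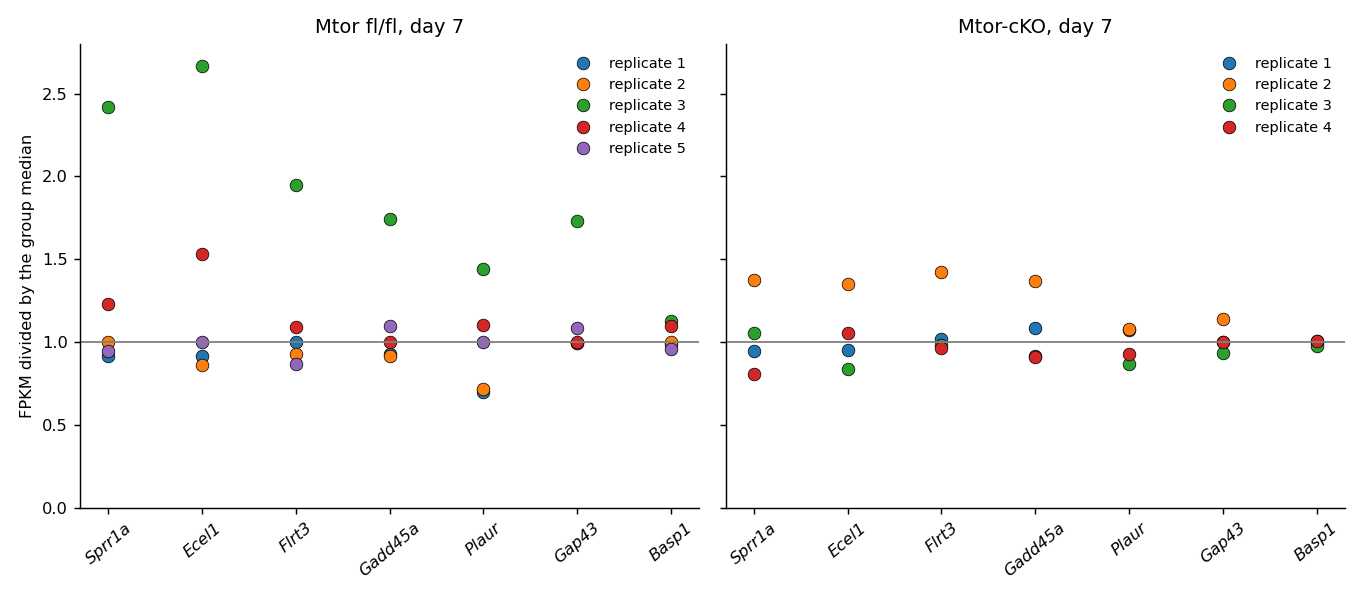
FPKM of each member in the day 7 libraries divided by the median of its group, with 1 point per library, for Mtor fl/fl (left) and Mtor-cKO (right). Mtor fl/fl replicate 3 is the top point for all 7 members, and Mtor-cKO replicate 2 for all but Basp1.

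The genes whose profile over the 17 libraries was most like that of each member were found by the root-mean-square difference of log2 CPM (counts scaled to library size), each profile centred on its mean in the Mtor fl/fl baseline group. Flrt3 was closest to Sox11 (0.178), the transcription factor, then to Sema6a (0.246). Gap43 was closest to Phlda1 (0.147) and Tubb2b (0.198), and Gadd45a to Stmn4 (0.296). Basp1 was closest to Ankrd13b (0.0802) and Csnk1e (0.0929), genes of small change. Plaur was closest to Smim3 (0.248), Tuba1c (0.277) and Adam8 (0.296). Ecel1 and Sprr1a, both of large range, had Cckbr, a cholecystokinin receptor, as their nearest gene, at 0.457 and 1.86. Among the members, the nearest pairs were Gap43 and Plaur (0.401), Flrt3 and Gadd45a (0.486) and Basp1 and Gap43 (0.520). These are descriptions over libraries that share their groups.

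Of 18 injury transcription factors listed and tested, 6 rose in Mtor fl/fl and 8 in Mtor-cKO, none fell, and the others did not pass. The median log2 fold change of the list was 0.21 and 0.50. Atf3 rose by 4.79 ± 0.31 in Mtor fl/fl and 4.74 ± 0.31 in Mtor-cKO (edgeR adjusted p = 1.2e-07 and 3.7e-07), and Sox11 by 2.66 ± 0.23 and 2.84 ± 0.24 (adjusted p = 2.6e-06 and 3e-06). Jun rose by 0.89 ± 0.15 and 1.61 ± 0.16 from a baseline 0.85 lower in Mtor-cKO (edgeR adjusted p = 0.0011, 1.5e-05 and 0.0015), and its interaction of 0.72 did not pass (adjusted p = 0.18). Of 22 other injury effectors tested, 16 rose in Mtor fl/fl and 15 in Mtor-cKO, and 7 were lower and none higher in Mtor-cKO at day 7. Among them Nts and Npy, which encode the neuropeptides neurotensin and NPY, were lower, with log2 differences of -4.30 ± 0.26 and -4.31 ± 0.33 (edgeR adjusted p = 4.1e-08 and 4.6e-07), and both were also lower at baseline, at -2.23 and -4.56 (adjusted p = 8.7e-05 and 0.0023). Gpr151, an orphan receptor, was 1.21 lower on the log2 scale and Gal, which encodes galanin, 0.67 lower (edgeR adjusted p = 0.00077 and 0.023), all 4 larger differences than those of Gap43 and Basp1, but the list was chosen with earlier results of these data known.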

How the data were processed

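RNA-Seq libraries of pooled DRGs were made from 17 mice and sequenced on a BGISEQ-500. The authors filtered the reads and aligned them to the mouse genome, named GRCm38.p5 in the methods and mm9 in the submitters' processing notes, which also list HISAT2 2.0.4, Bowtie2 2.2.5 and RSEM 1.2.12. They deposited RSEM expected counts per gene, not scaled, and FPKM per gene, scaled to transcript length and library size. Whether counting used strand is not given in the sources used here. Other sheets, with 8 columns that name no sample, were not used.

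Expected counts were rounded and tested with edgeR 4.0.16 (quasi-likelihood, TMM, 1 coefficient per group, all 17 libraries) in R 4.3.3 for genes whose group mean reached 1 FPKM in any group. Passed means a Benjamini-Hochberg adjusted p under 0.05 over the 13408 genes tested, and over 2-fold is stated where used. SEs and 95% intervals are approximate and derive from the F statistic. The script was tested on simulated data. Log2 fold changes are on the count scale, and levels are the deposited FPKM, with totals of 17060876 to 21076542 expected counts per library. Alternatives were DESeq2 1.42.0, RLE scaling, other filters, only the groups compared, a replicate block, limma 3.58.1 on log2(FPKM + 0.1) and log2(FPKM + 1), and leaving out libraries. The members and gene lists were chosen with earlier results of these data known. Named list genes were up to 4 with the smallest p among those that passed the injury test in Mtor fl/fl and up to 2 that passed between genotypes at day 7, and a few are left out for length. Flrt1 and Sprr1b were named beside them as relatives of members. For likeness, the 3 nearest tested genes per member were found. Promoter windows came from RefSeq (GRCm38.p6) and gene positions from GENCODE M21 (GRCm38), and no coordinates came from the deposited files.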

Additional observations from a re-analysis of the deposited data

Results flagged for a closer look

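In groups of 4 or 5 libraries, a library was singled out when its gap to the nearest other library exceeded Dixon's 95% critical share of the group's range. Of 32 combinations of gene and group, 7 met this, where chance gives about 1 in 20 for normally spread values. The genes share their libraries, so the combinations are not independent and the 2 shares cannot be compared as a test. Mtor fl/fl day 7 replicate 3 stood far above the other 4 libraries for Sprr1a (1640.86 FPKM), Gap43 (538.62 FPKM), Flrt3 (43.62 FPKM) and Gadd45a (116.81 FPKM). Mtor-cKO day 7 replicate 2 stood apart for Flrt3 (36.87 FPKM). Csrp3 stood apart in Mtor-cKO baseline replicate 2 (3.13 FPKM) and Mtor-cKO day 7 replicate 1 (1.06 FPKM), the libraries with the most skeletal muscle marker RNA.

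The injury response of Lce6a differed between the genotypes by 3.32 on the log2 scale in the interaction test, higher in Mtor-cKO (edgeR adjusted p = 0.0303, from 0.00045 to 0.145 over the alternatives).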

How the results depend on the processing

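Results were recomputed under 30 alternatives, 4 of them chosen after seeing the data, except that the interaction had 29, since it needs all 4 groups. In both injury comparisons all 7 members kept their direction and their side of the threshold under every alternative, with 6 over 2-fold in Mtor fl/fl and 5 in Mtor-cKO. At baseline 1 member passed as reported. It was 2 with only the 2 groups compared, 0 without the 3 libraries highest in muscle markers, 2 without Mtor fl/fl day 7 replicate 3 and Mtor-cKO day 7 replicate 2, 0 without Mtor fl/fl baseline replicates 3 and 4, 2 without its replicates 1 and 2, and 0 to 2 with 1 library left out. At day 7, 3 passed as reported. It was 0 with no filter, 1 with only the 2 groups compared, 1 and 1 with limma on log2(FPKM + 0.1) and log2(FPKM + 1), 0 without the 3 muscle-rich libraries, 1 without Mtor fl/fl replicate 3 and Mtor-cKO replicate 2, and 0 to 3 with 1 library left out. The interaction passed for 0 members as reported, for 1 with DESeq2, for 1 without Mtor fl/fl baseline replicates 1 and 2, and for 0 to 1 with 1 library left out. The cause was not tested. Of 35 member results, 25 kept their direction under every alternative.

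Some member differences that did not pass changed sign. The baseline genotype difference of Sprr1a was -0.0373 and -0.0069 with limma at the 2 pseudocounts, -0.8014 without the 3 muscle-rich libraries and -0.1158 without Mtor fl/fl baseline replicates 1 and 2, and ran from -0.5479 to 0.5866 with 1 library left out. That of Gap43 was 0.0026 with no filter, 0.0612 without replicates 1 and 2, and -0.0669 to 0.0484 with 1 library left out. That of Ecel1 was -0.2187 without replicates 3 and 4, -0.2151 with only replicates 1 and 2 of Mtor fl/fl, and -0.2904 to 0.7622 with 1 library left out. That of Flrt3 was 0.177 without replicates 1 and 2, and -0.1204 to 0.0829 with 1 library left out. At day 7 the Flrt3 difference ran from -0.0711 to 0.345 with 1 library left out, and that of Gadd45a was 0.0195 with only Mtor fl/fl replicates 1 and 2. In this last setting Plaur lost its day 7 call at -0.0438 (edgeR adjusted p = 0.754), and Ecel1 gained one, 0.8367 higher in Mtor-cKO (adjusted p = 0.0435). The interaction of Sprr1a was 0.3915 without the muscle-rich libraries and ran from -1.0472 to 0.0873 with 1 library left out. That of Ecel1 was 0.0981 and 0.2522 with limma, 0.239 without the muscle-rich libraries, 0.0237 without the 2 high day 7 libraries, 0.4654 without Mtor fl/fl baseline replicates 3 and 4, and 1.0518 with only replicates 1 and 2, and ran from -0.5154 to 0.5373 with 1 library left out. That of Flrt3 was -0.1044 without replicates 1 and 2 and ran from -0.0313 to 0.3849, and that of Gadd45a from -0.002 to 0.3514, with 1 library left out.

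Replicate numbers belong to different mice, whose same-numbered libraries correlated at 0.60, 0.59, 0.08 and 0.27 across injury in Mtor fl/fl, at -0.47 to -0.08 in Mtor-cKO, and at -0.10 to 0.62 and -0.36 to -0.05 between genotypes at baseline and day 7. In no comparison were all 4 over 0.1, so the numbers were not taken as pairs. With a replicate block the member calls held, except that Plaur lost its day 7 call (-0.4579), and the Flrt3 day 7 difference was -0.0245. Some counts over all genes moved by more than 1.5 times. The 971 for injury in Mtor fl/fl became 319 with only the 2 groups compared, 570 without the muscle-rich libraries, 548 without the 2 high day 7 libraries, and 2040 and 2207 without Mtor fl/fl baseline replicates 3 and 4 or 1 and 2. The 932 in Mtor-cKO became 1827 with DESeq2, 4185 with only the 2 groups, 1685 with the replicate block, 210 without the muscle-rich libraries, 548 without the 2 high day 7 libraries, 1843 and 1742 without those baseline pairs, and 4785 with only Mtor fl/fl replicates 1 and 2. The 2130 for genotype at baseline became 1171 with only the 2 groups, 1010 without the muscle-rich libraries, 4366 without Mtor fl/fl replicates 1 and 2 and 4445 with only these, which also gave 6446 against 3483 at day 7. The 11 of the interaction became 258 with DESeq2, 5 with filterByExpr, 161 with the block, 0 without the muscle-rich libraries, 1286 without Mtor fl/fl baseline replicates 1 and 2, and 616 with only replicates 1 and 2. With 1 library left out these 4 ran from 639 to 1283, 388 to 1336, 1397 to 2627 and 1 to 119. List genes other than Lce6a were not recomputed. Csrp3, at 0 to 60 counts per library, was too low for a small change to be seen.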
